A study of Homo sapiens with 24 samples.

Results

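Pocket proteins and cyclin-dependent kinase (CDK) inhibitors are the brakes of entry into S phase, and their transcripts were described here across HER2 siRNA and estrogen treatment of BT-474 cells. The members were 10 named genes, the pocket proteins RB1, RBL1 and RBL2, the CIP/KIP inhibitors CDKN1A, CDKN1B and CDKN1C, and the INK4 inhibitors CDKN2A, CDKN2B, CDKN2C and CDKN2D. Of these, 9 had at least 1 probe set annotated to them alone (22 probe sets in all), out of 19775 genes and 54675 probe sets on the array, and CDKN2C was not analysed here. Each gene was followed by its probe set with the highest mean over all arrays. BT-474 cells come from a human breast tumour and are a widely used line. They carry extra copies of ERBB2, the gene of the receptor tyrosine kinase HER2, and have estrogen receptor. All cells had received an siRNA, either HER2 siRNA or control siRNA, and then 10 nM estrogen or the vehicle, 0.001% ethanol, for 24 or 4 h. These choices gave 8 groups of 3 arrays, and nothing in the labels says that the arrays of a group came from separate cultures. The p-values therefore cover only the spread among arrays, which may be technical.

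Pocket proteins bind E2F transcription factors and hold their target genes silent until cyclin-dependent kinases phosphorylate them. INK4 inhibitors block the kinases CDK4 and CDK6 that work with D-type cyclins, whereas CIP/KIP inhibitors bind a wider set of cyclin-kinase complexes, above all those of CDK2. In breast epithelial cells HER2 signalling through PI3K and AKT keeps FOXO factors out of the nucleus, and FOXO factors are known inducers of CDKN1B and RBL2, while RBL1 is itself an E2F target.

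The promoters of RBL2, CDKN1B and CDKN2D, whose transcripts changed with the siRNA, and that of RBL1 are shown with the letters that E2F and forkhead (FOXO) factors are known to bind. Sequences are from RefSeq on GRCh38.p14, written 5′ to 3′ on the gene's strand. Each runs over the 120 bases before an annotated start, except that the last RBL2 stretch covers 126 bases and runs past its start to hold the match. Capitals mark matches to the E2F letters TTTCGCGC, TTTGGCGC, TTTCCCGC or TTTGCCGC, or to the forkhead letters GTAAACA or ATAAACA, searched on both strands.
RBL1, chr20:37095998-37096117, minus strand: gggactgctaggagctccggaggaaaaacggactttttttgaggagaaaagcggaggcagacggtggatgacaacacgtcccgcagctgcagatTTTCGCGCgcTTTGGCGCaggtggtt
RBL2 at its upstream start, chr16:53434351-53434470, plus strand: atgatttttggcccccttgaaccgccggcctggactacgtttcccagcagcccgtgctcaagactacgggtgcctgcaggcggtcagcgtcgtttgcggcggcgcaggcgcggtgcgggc
RBL2 at its downstream start, chr16:53435499-53435624, plus strand: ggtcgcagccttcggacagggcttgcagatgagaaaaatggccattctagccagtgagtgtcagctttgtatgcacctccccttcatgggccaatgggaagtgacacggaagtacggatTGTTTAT
CDKN1B, chr12:12717248-12717367, plus strand: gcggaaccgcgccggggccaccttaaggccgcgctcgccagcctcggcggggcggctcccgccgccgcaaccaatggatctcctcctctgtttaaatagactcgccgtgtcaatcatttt
CDKN2D, chr19:10568980-10569099, minus strand: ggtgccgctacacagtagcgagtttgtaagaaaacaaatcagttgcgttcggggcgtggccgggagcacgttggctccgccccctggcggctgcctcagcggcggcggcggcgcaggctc

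RBL1 held 2 E2F matches, at -26 to -19 and -16 to -9 from its start, and the forkhead match of RBL2, TGTTTAT on the printed strand, lay at -1 to 6. Over windows from 250 bases before to 50 after a start, 3.31% of 35116 RefSeq windows held an E2F match and 7.43% a forkhead match. Another set of letters, TTTGAA or TTCGAA, which mark the cell cycle homology region read by the MuvB complex, searched on both strands, was found in 16.4% of windows and at 25 to 30 from the upstream RBL2 start. The 9 members with a window had 13 windows, of which 3 held a match of any kind. CDKN1C had no window in the table used, and the CDKN1B and CDKN2D windows held none of these letters. A match describes letters in a window only.

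Values were log2 levels made by RMA, a method that summarises the probes of a probe set, and differences are on the log2 scale, given ± standard error. A gene was tested when it reached a log2 level of 5 in at least 3 arrays, which 7 members and 14335 genes did, and a call is an adjusted p below 0.05 in limma over all these genes. Array medians lay between 5.28 and 5.36, and the number of arrays limits the precision. ERBB2 was lower in HER2 siRNA cells (-1.34 ± 0.06), with 12.69 on the highest HER2 siRNA array and 13.39 on the lowest control siRNA array. All 8 luminal epithelial markers were tested, with summed log2 levels of 95.9 to 97.7 on HER2 siRNA arrays and 95.8 to 98.0 on control siRNA arrays. Of 12 fibroblast, leukocyte and endothelial markers 7 passed the filter, with summed log2 levels of 61.0 to 63.2 on HER2 siRNA arrays and 60.9 to 62.3 on control siRNA arrays over all 12, and PTPRC, CD14, CDH5, COL3A1 and LUM were below it, while COL1A1 had a mean of 9.58 and VWF of 7.28. The source name of HER2 siRNA estrogen 4 h replicate 3 gives 24 h while its other labels give 4 h, and the descriptions of 3 replicate 1 arrays carry another number series than those of the other 21 (HER2 siRNA estrogen 4 h, control siRNA estrogen 24 h and control siRNA vehicle 24 h), called here the arrays numbered apart.

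HER2 siRNA changed members of all 3 families, upward for a pocket protein and CIP/KIP inhibitors and downward for an INK4 inhibitor. Averaged over the 4 conditions of hormone and time, CDKN1C, RBL2 and CDKN1B were higher in HER2 siRNA cells, CDKN2D was lower, and RB1, CDKN1A and CDKN2A did not pass the test, although CDKN1A did with the replicate number as a block. The 4 called members of 7 (57.1%) compare with 59.2% of all genes tested, so the share of members called was near the background, and the sizes and directions of single genes carry the description below. Upward calls were 3 of 7 against a background of 30.1%, and downward calls 1 of 7 against 29.1%. The median difference of the 7 members was 0.00, against -2.3e-06 over all genes tested. The average count was 4 without HER2 siRNA estrogen 4 h replicate 3 and 4 without the 3 arrays numbered apart. In a culture, fewer cells of a state and less RNA per cell cannot be told apart.

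**Figure D1:**
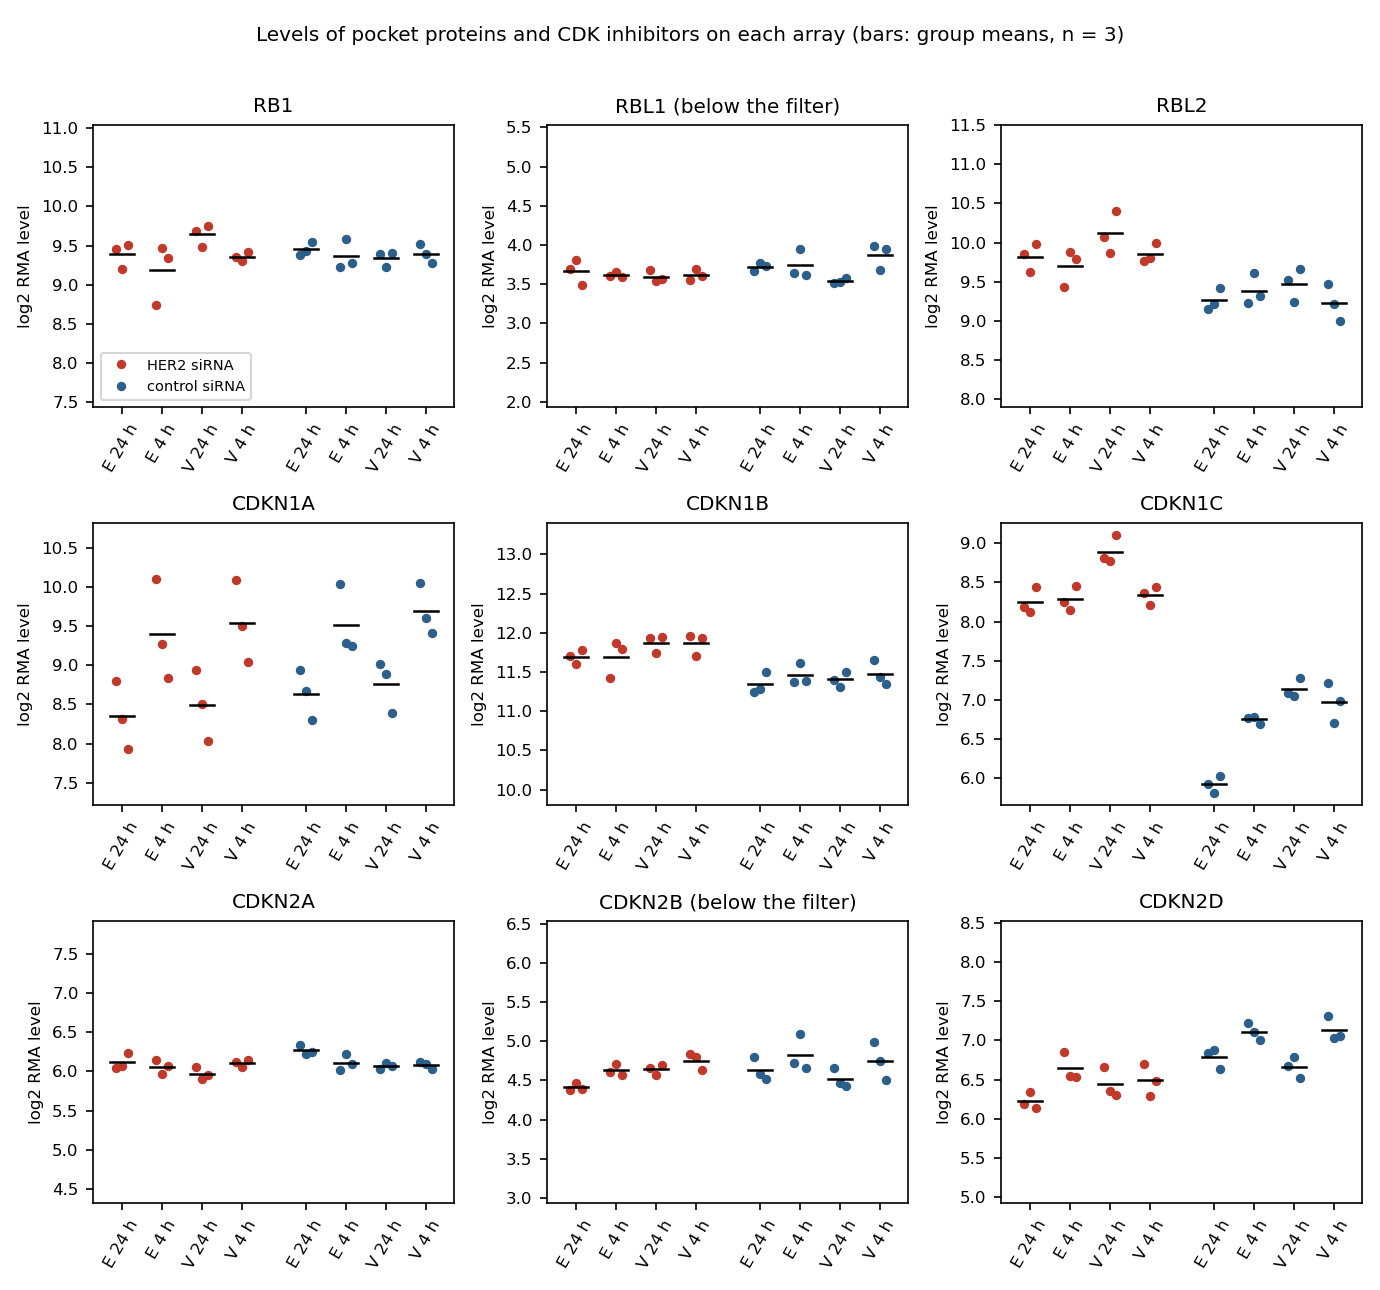
Log2 RMA level (y axis) of the 9 members with a probe set on each of 24 arrays, with HER2 siRNA in red left of control siRNA in blue, E for estrogen and V for vehicle, and bars at the means of 3 arrays; each panel has its own y range. CDKN1C separated the siRNAs on all 24 arrays, RBL2 and CDKN1B did so in most conditions, and RBL1 and CDKN2B stayed below the filter.

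The pocket protein genes differed from each other. RBL2 (chr16:53434471-53491648, GRCh38.p14) encodes p130, the pocket protein that forms the repressive DREAM complex with MuvB in resting cells. Its log2 levels in HER2 siRNA cells were 9.86, 9.62 and 9.98 (estrogen 24 h), 9.44, 9.89 and 9.79 (estrogen 4 h), 10.08, 9.87 and 10.40 (vehicle 24 h) and 9.77, 9.81 and 9.99 (vehicle 4 h). In control siRNA cells they were 9.16, 9.22 and 9.42 (estrogen 24 h), 9.22, 9.62 and 9.32 (estrogen 4 h), 9.53, 9.24 and 9.66 (vehicle 24 h) and 9.47, 9.22 and 9.00 (vehicle 4 h). The siRNA groups did not overlap in 3 conditions and overlapped with estrogen at 4 h, where HER2 siRNA replicate 1 was low, and 10 of 12 HER2 siRNA arrays stood above the highest control siRNA array. RBL2 rose by 0.53 ± 0.08 on average (adjusted p = 2.96e-06, limma), which is 1.45-fold (95% confidence interval 1.30 to 1.62), and 7.08% of genes tested had a higher averaged difference. Its differences were 0.56, 0.32, 0.64 and 0.62 (each ± 0.15) in the same order of conditions, with adjusted p of 0.00558, 0.123, 0.00188 and 0.00319 in limma. A second RBL2 probe set rose less, by 0.18 ± 0.07 on average (adjusted p = 0.0223 in limma over all probe sets).

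RB1, the retinoblastoma protein gene that acts at the G1 restriction point, had log2 levels of 8.74 to 9.75 in HER2 siRNA cells (median 9.44) and 9.23 to 9.58 in control siRNA cells (median 9.40). Its averaged difference was 0.00 ± 0.07 (adjusted p = 0.961, limma; 95% confidence interval -0.14 to 0.15). With vehicle at 24 h the siRNA groups did not overlap, at 0.30 ± 0.14 (adjusted p = 0.0965, limma). This difference passed the threshold in limma without HER2 siRNA estrogen 4 h replicate 1 (adjusted p = 0.0241). It also passed with only the groups compared (0.046), with quantile normalisation (0.0363) and without the 3 arrays numbered apart (0.0385). HER2 siRNA estrogen 4 h replicate 1 held the lowest RB1 level of all 24 arrays and is one of the arrays numbered apart. A second RB1 probe set, below the filter, was lower in HER2 siRNA cells in every condition, most with estrogen at 4 h (4.26 against 4.52). With the mean of the probe sets RB1 was called lower with estrogen at 4 h (-0.22, adjusted p = 0.0235 in limma). RBL1 encodes p107, the pocket protein that rises with E2F activity, and all 4 of its probe sets lay below the filter, at 3.49 to 3.98 for the one used. Its levels are therefore near the floor of the array and were not tested. In the unfiltered fit 1 of these 4 probe sets was lower in HER2 siRNA cells, at -0.46 ± 0.06 (adjusted p = 2.52e-06, limma), while the one used had -0.09 ± 0.05.

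Among the CIP/KIP inhibitors CDKN1C had the largest siRNA difference of the 7 members tested. CDKN1C encodes p57, an inhibitor of cyclin-CDK2 complexes, from an imprinted gene at chr11:2883218-2885775 (GRCh38.p14). In HER2 siRNA cells its log2 levels were 8.19, 8.12 and 8.44 (estrogen 24 h), 8.25, 8.15 and 8.46 (estrogen 4 h), 8.81, 8.77 and 9.10 (vehicle 24 h) and 8.36, 8.21 and 8.44 (vehicle 4 h). In control siRNA cells they were 5.92, 5.82 and 6.04 (estrogen 24 h), 6.77, 6.79 and 6.70 (estrogen 4 h), 7.09, 7.05 and 7.28 (vehicle 24 h) and 7.22, 6.71 and 6.99 (vehicle 4 h). All 12 HER2 siRNA arrays stood above the highest of the 12 control siRNA arrays, and the estrogen 24 h arrays were the lowest of the control siRNA arrays. CDKN1C rose by 1.74 ± 0.06 (adjusted p = 1.08e-15, limma), which is 3.35-fold (95% confidence interval 3.06 to 3.65), and 30 of the 14335 genes tested had a higher averaged difference. By condition the difference was 2.33 (estrogen 24 h), 1.53 (estrogen 4 h), 1.75 (vehicle 24 h) and 1.36 (vehicle 4 h), each ± 0.12, and it passed the test in all 4 conditions. With estrogen at 4 h, leaving out HER2 siRNA estrogen 4 h replicate 3 gave 1.45, and leaving out the 3 arrays numbered apart gave 1.55.

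CDKN1C had 5 probe sets, and the 4 above the filter were all called higher in HER2 siRNA cells, by 1.74, 1.28, 1.40 and 1.39 on average. Of these, 3 carry the x_at suffix, which marks probes that can also match other transcripts. The fifth probe set had a mean log2 level of 4.04, below the filter, and a difference of 0.26. With the mean over all 5 probe sets the siRNA difference with estrogen at 24 h was 1.41, against 2.33 on the brightest one, and it was still called.

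**Figure D2:**
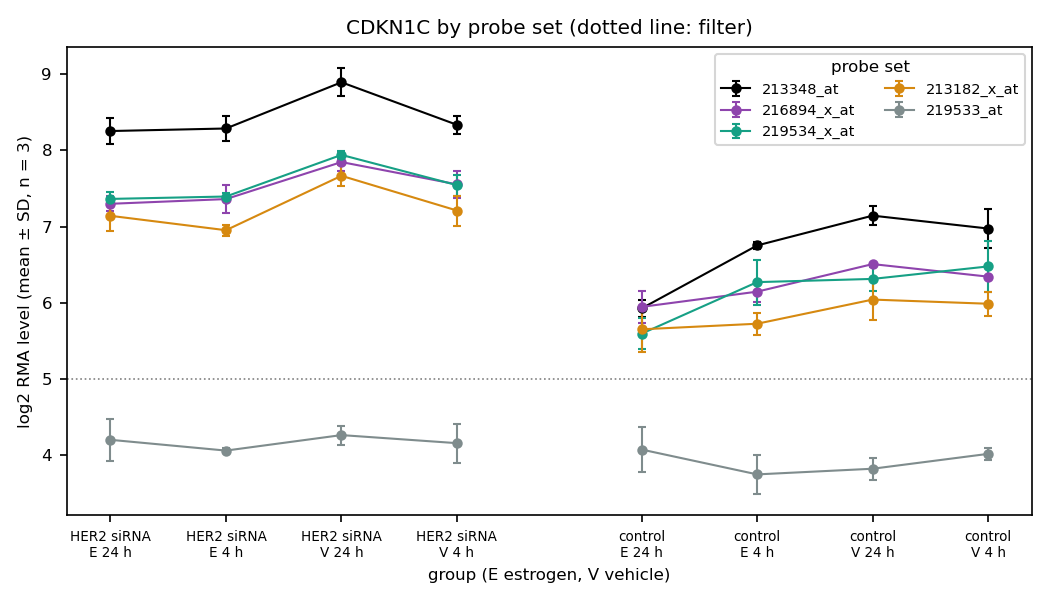
Log2 RMA level of the 5 CDKN1C probe sets (y axis, mean ± SD of 3 arrays) in the 8 groups (x axis), HER2 siRNA left of control siRNA, with a dotted line at the filter of 5. The 4 probe sets above the filter are higher in every HER2 siRNA group than in the matched control siRNA group, and the lowest level of the brightest one, in black, is in control siRNA cells with estrogen at 24 h (5.93 ± 0.11).

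CDKN1B (chr12:12717368-12722369) encodes p27, which FOXO factors induce and the SKP2 ubiquitin ligase removes. Its log2 levels in HER2 siRNA cells were 11.70, 11.60 and 11.77 (estrogen 24 h), 11.43, 11.87 and 11.79 (estrogen 4 h), 11.93, 11.75 and 11.95 (vehicle 24 h) and 11.96, 11.71 and 11.94 (vehicle 4 h). In control siRNA cells they were 11.24, 11.29 and 11.49 (estrogen 24 h), 11.38, 11.62 and 11.39 (estrogen 4 h), 11.40, 11.31 and 11.50 (vehicle 24 h) and 11.65, 11.44 and 11.35 (vehicle 4 h). As for RBL2, the siRNA groups overlapped with estrogen at 4 h only, and 10 of 12 HER2 siRNA arrays stood above the highest control siRNA array. The averaged rise was 0.36 ± 0.06 (adjusted p = 9.65e-06, limma), or 1.29-fold (95% confidence interval 1.18 to 1.40), and 13.1% of genes tested had a higher averaged difference. By condition the differences were 0.35, 0.24, 0.47 and 0.39 (each ± 0.11) in the same order of conditions, with adjusted p of 0.0166, 0.121, 0.00202 and 0.0107 in limma. The estrogen 24 h call was lost without control siRNA estrogen 24 h replicate 1 (adjusted p = 0.0705), control siRNA estrogen 24 h replicate 2 (0.0569) or HER2 siRNA estrogen 24 h replicate 3 (0.0676), and the vehicle 4 h call without control siRNA vehicle 4 h replicate 3 (0.061).

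CDKN1A (chr6:36676463-36687332) encodes p21, the inhibitor that p53 and growth factor signals induce. Its averaged siRNA difference was -0.21 ± 0.16 (adjusted p = 0.296, limma; 95% confidence interval -0.54 to 0.13). A fit blocked on replicate number called it (adjusted p = 0.00344, limma). Its log2 levels were 7.93 to 10.10 in HER2 siRNA cells (median 8.89) and 8.30 to 10.05 in control siRNA cells (median 9.13). CDKN1A was the member with the widest spread between replicates. Replicate 1 was the highest and replicate 3 the lowest in 8 of 8 groups, with ranges within a group of 0.625 to 1.26. The mean SD within groups was 0.436 on the log2 scale, against a median of 0.122 over genes tested, and 42 genes had a larger one. With estrogen at 4 h the siRNA difference of CDKN1A was -0.12 ± 0.32 and turned to 0.17 without HER2 siRNA estrogen 4 h replicate 3, and neither passed.

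Of the INK4 inhibitors CDKN2D alone was called for the siRNA. CDKN2D (chr19:10566460-10568979) encodes p19 INK4d, an inhibitor of CDK4 and CDK6 whose transcript is known to rise as cells pass through S phase. Its log2 levels in HER2 siRNA cells were 6.19, 6.35 and 6.13 (estrogen 24 h), 6.85, 6.55 and 6.53 (estrogen 4 h), 6.66, 6.36 and 6.31 (vehicle 24 h) and 6.70, 6.30 and 6.49 (vehicle 4 h). In control siRNA cells they were 6.84, 6.88 and 6.63 (estrogen 24 h), 7.22, 7.11 and 7.01 (estrogen 4 h), 6.67, 6.79 and 6.52 (vehicle 24 h) and 7.32, 7.03 and 7.06 (vehicle 4 h). HER2 siRNA cells were lower without overlap in 3 conditions, the groups overlapped with vehicle at 24 h, and 7 of 12 HER2 siRNA arrays stood below the lowest control siRNA array. CDKN2D fell by 0.47 ± 0.06 on average (adjusted p = 6.25e-07, limma), to 72.1% of the level in control siRNA cells (95% confidence interval 66.1 to 78.7%), and 9.31% of genes tested had a lower averaged difference. By condition the differences were -0.56, -0.47, -0.22 and -0.64 (each ± 0.12) in the same order of conditions, with adjusted p of 0.000725, 0.00455, 0.167 and 0.000285 in limma. A second, dimmer CDKN2D probe set had -0.11 ± 0.05 on average (adjusted p = 0.0797, limma). Its means in HER2 siRNA against control siRNA cells were 5.11 against 5.09 (estrogen 24 h) and 4.98 against 5.07 (estrogen 4 h). With vehicle they were 5.02 against 5.07 (24 h) and 4.83 against 5.16 (4 h), and only the last difference was called.

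CDKN2A encodes p16 INK4a and, from another reading frame, ARF. Its log2 levels spanned 5.90 to 6.23 in HER2 siRNA cells (median 6.06) and 6.01 to 6.34 in control siRNA cells (median 6.10). The averaged difference was -0.07 ± 0.04 (adjusted p = 0.116, limma). Of the 3 CDKN2A probe sets 2 passed the filter, and neither was called in the averaged comparison. With estrogen at 24 h the difference on the probe set used was -0.15 ± 0.07 (adjusted p = 0.099, limma), and it passed without HER2 siRNA estrogen 24 h replicate 3 (adjusted p = 0.0366). CDKN2B, which encodes p15 INK4b, the inhibitor that TGF-beta signals induce, lay at 4.37 to 5.10 over the 24 arrays, with 1 array at or above the filter level, and was not tested. Its second probe set was dimmer still, at a mean of 3.66, and went the other way from the first in the unfiltered fit (0.37 ± 0.07 against -0.07 ± 0.06).

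By condition, HER2 siRNA changed 4 of 7 members after 24 h of estrogen (background 42%), 2 of 7 after 4 h of estrogen (34.1%), 3 of 7 after 24 h of vehicle (41.5%) and 4 of 7 after 4 h of vehicle (34.2%). Without HER2 siRNA estrogen 4 h replicate 1 the estrogen 4 h count was 4, as RBL2 (adjusted p = 0.0404, limma) and CDKN1B (adjusted p = 0.014) then passed. Without the 3 arrays numbered apart the count was 3 after 4 h of estrogen, where 4549 of 14260 genes tested were called. After 24 h of vehicle it was then 4, with 5383 of 14260 genes called. Without HER2 siRNA estrogen 4 h replicate 3 the estrogen 4 h count was 2, with CDKN2D at -0.41 (adjusted p = 0.028 in limma). HER2 siRNA estrogen 4 h replicate 1 had the largest log2 difference between 3′ and 5′ ACTB control probe sets of all 24, at 2.30. The same difference for GAPDH, which tracks RNA degradation, was larger in HER2 siRNA cells, at 0.443 ± 0.060 against 0.305 ± 0.066 in control siRNA cells (SD, n = 12 each). With it as a covariate the CDKN2D call with estrogen at 4 h was lost (-0.37, adjusted p = 0.0763 in limma), and no other siRNA call of a member was. Its part in these differences was otherwise not tested.

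**Figure D3:**
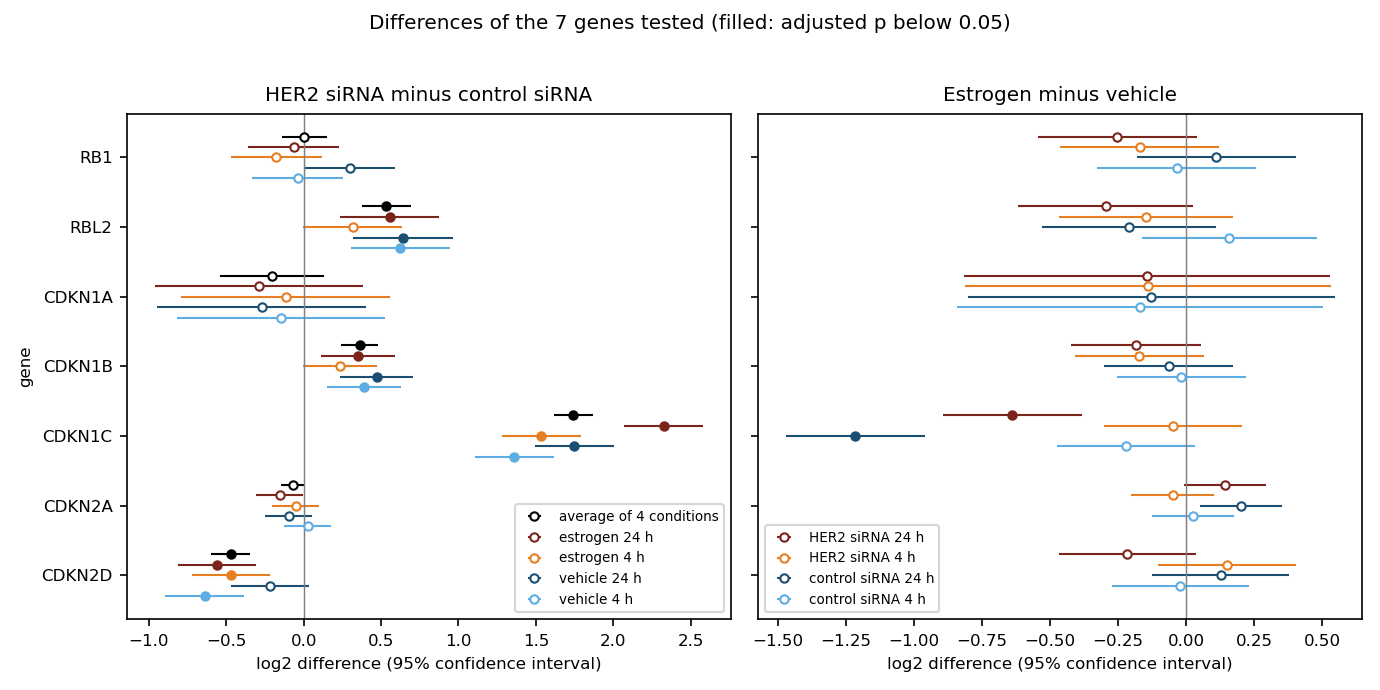
Log2 differences (x axis, with 95% confidence intervals) of the 7 members tested (y axis), for HER2 siRNA minus control siRNA on the left and estrogen minus vehicle on the right, with filled points for an adjusted p below 0.05. CDKN1C lies far right in all 4 conditions of the left panel and is the one member with filled points in the right panel, at 24 h with either siRNA.

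CDKN1C was the member called for estrogen, at 24 h with either siRNA. Its estrogen effect at 24 h was not tested against that at 4 h. With control siRNA the log2 levels after 24 h of estrogen (5.92, 5.82 and 6.04) lay below those with vehicle (7.09, 7.05 and 7.28) without overlap. CDKN1C fell by 1.22 ± 0.12 (adjusted p = 1.09e-06, limma), to 43.0% of the vehicle level (95% confidence interval 36.1 to 51.3%), and 6 genes fell further. It was 1 of 7 members called, or 14.3%, against 13.5% of all genes. The estrogen 24 h arrays of either siRNA also enter the siRNA comparison, so the estrogen and siRNA results are not independent. Of the arrays numbered apart, 2 lie in this comparison, 1 in each group, and CDKN1C differed by -1.17 between those (1 against 1) and by -1.24 between the others (2 against 2). In HER2 siRNA cells at 24 h CDKN1C fell by 0.64 ± 0.12 (adjusted p = 0.00164, limma), again 1 of 7 members (background 6.17%, and 1.9% lower), and levels with estrogen (8.19, 8.12 and 8.44) again lay below those with vehicle (8.81, 8.77 and 9.10). On other CDKN1C probe sets above the filter the 24 h differences were -0.55, -0.58 and -0.52 in HER2 siRNA cells and -0.56, -0.72 and -0.39 in control siRNA cells, of which the last in either siRNA was not called. With the mean of its probe sets CDKN1C fell by 0.53 in control siRNA cells, less than with the brightest one, and the call stayed.

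At 4 h no member was called for estrogen, with 0 of 7 in HER2 siRNA cells (background 0.698%) and 0 of 7 in control siRNA cells (0.342%). CDKN1C had -0.05 ± 0.12 in HER2 siRNA cells and -0.22 ± 0.12 in control siRNA cells at 4 h. CDKN2A was higher with estrogen at 24 h in control siRNA cells without overlap, at 0.20 ± 0.07, but its adjusted p was 0.0722 in limma, and it passed with quantile normalisation (0.23, adjusted p = 0.0439). The CDKN2A probe set used carries the x_at suffix. Another that passed the filter had means near the filter level, 4.85 with estrogen and 4.81 with vehicle in the same comparison, and was not called. The 6 members other than CDKN1C had 24 h differences between -0.30 (RBL2) and 0.14 (CDKN2A) in HER2 siRNA cells, and the other 5 lay between -0.21 (RBL2) and 0.13 (CDKN2D) in control siRNA cells.

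The difference between the estrogen effects of the siRNAs was tested as well. At 24 h the fall of CDKN1C was smaller in HER2 siRNA cells by 0.58 ± 0.17, with an adjusted p of 0.403 in limma, and 0 of 7 members passed (background 0.0628%). With the mean of the CDKN1C probe sets this difference was 0.06. At 4 h 0 of 7 passed, as did none of all genes in limma (background 0%), of which 403 had an unadjusted p below 0.05. The siRNA effect itself differed between times for CDKN1C, at 2.04 at 24 h and 1.45 at 4 h over both hormones. This difference of 0.59 ± 0.12 passed (adjusted p = 0.0119, limma; 1 of 7 members, background 2.95%). With the mean of the CDKN1C probe sets it was 0.34 and the call was lost (adjusted p = 0.0597).

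Comparing 24 h with 4 h within each group asks how the members changed with time in culture. In HER2 siRNA cells with vehicle CDKN1C was higher at 24 h by 0.56 ± 0.12 (adjusted p = 0.0104, limma; 1 of 7 members, background 6.46%, of which 3.03% higher and 3.43% lower), and the call was lost without HER2 siRNA vehicle 24 h replicate 3 (0.45, adjusted p = 0.061). With control siRNA and estrogen it was lower at 24 h, at -0.83 ± 0.12 (adjusted p = 0.00036, limma; 1 of 7, background 5.96%, of which 2.53% higher and 3.43% lower), and with the mean of the probe sets this call was lost (adjusted p = 0.0863). Of the 4 CDKN1C probe sets above the filter, 1 was called in HER2 siRNA cells with vehicle and 2 with control siRNA and estrogen. Elsewhere CDKN1C did not pass, at -0.03 ± 0.12 in HER2 siRNA cells with estrogen and 0.17 ± 0.12 in control siRNA cells with vehicle. CDKN2D was lower at 24 h in HER2 siRNA cells with estrogen (-0.42 ± 0.12, adjusted p = 0.042 in limma; 1 of 7, background 6.21%, of which 3.06% higher and 3.15% lower). Leaving out any of 7 single arrays lost that call, with adjusted p from 0.0508 without control siRNA vehicle 24 h replicate 1 to 0.224 without HER2 siRNA estrogen 4 h replicate 1, and it was lost without the arrays numbered apart too (0.257). The dimmer CDKN2D probe set was not lower at 24 h in those cells, with means of 5.11 at 24 h and 4.98 at 4 h. With control siRNA CDKN2D was lower at 24 h without overlap with either hormone, at -0.33 ± 0.12 with estrogen and -0.48 ± 0.12 with vehicle, but the adjusted p were 0.117 and 0.0728 in limma.

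CDKN1A levels at 24 h lay below those at 4 h with either siRNA and either hormone, without overlap of the groups, but the differences did not pass the test. With estrogen its log2 levels were 8.80, 8.31 and 7.93 at 24 h and 10.10, 9.27 and 8.83 at 4 h in HER2 siRNA cells, and 8.94, 8.67 and 8.30 at 24 h and 10.03, 9.29 and 9.24 at 4 h in control siRNA cells. Vehicle gave 8.94, 8.51 and 8.03 at 24 h and 10.09, 9.49 and 9.04 at 4 h in HER2 siRNA cells, and 9.02, 8.89 and 8.39 at 24 h and 10.05, 9.61 and 9.41 at 4 h in control siRNA cells. In each group the arrays kept the same order of replicates, and the spread within a group was similar in size to the change with time. The differences were -1.05, -1.05, -0.88 and -0.92 (each ± 0.32) in HER2 siRNA estrogen, HER2 siRNA vehicle, control siRNA estrogen and control siRNA vehicle, and none passed the test (adjusted p 0.0574, 0.0563, 0.115 and 0.194 in limma; 0 of 7 members in control siRNA vehicle, background 0.781%, of which 0.363% higher and 0.419% lower). Within a replicate number the differences were -0.61 to -1.29. As the groups did not overlap, every such pair had to be lower at 24 h, so this adds no support. In HER2 siRNA cells with vehicle, where the arrays deviated together by replicate number, a fit with the replicate number as a block gave CDKN1A an adjusted p of 1.13e-05 in limma, and 2 members then passed in place of 1. The genes called among all 14335 tested rose as well, from 926 to 1670.

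Single arrays also moved the CDKN1A calls in HER2 siRNA cells. With vehicle it passed without HER2 siRNA vehicle 24 h replicate 1 (adjusted p = 0.0377, limma), HER2 siRNA vehicle 4 h replicate 3 (0.0263), HER2 siRNA estrogen 4 h replicate 1 (0.0355) or HER2 siRNA estrogen 4 h replicate 3 (0.045). With estrogen it passed without HER2 siRNA vehicle 24 h replicate 3 (0.0495), HER2 siRNA estrogen 24 h replicate 1 (0.0357), control siRNA estrogen 4 h replicate 1 (0.0489), HER2 siRNA vehicle 4 h replicate 1 (0.044), HER2 siRNA vehicle 4 h replicate 3 (0.0457) or HER2 siRNA estrogen 4 h replicate 3 (0.0218), the array whose labels disagree on time.

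**Figure D4:**
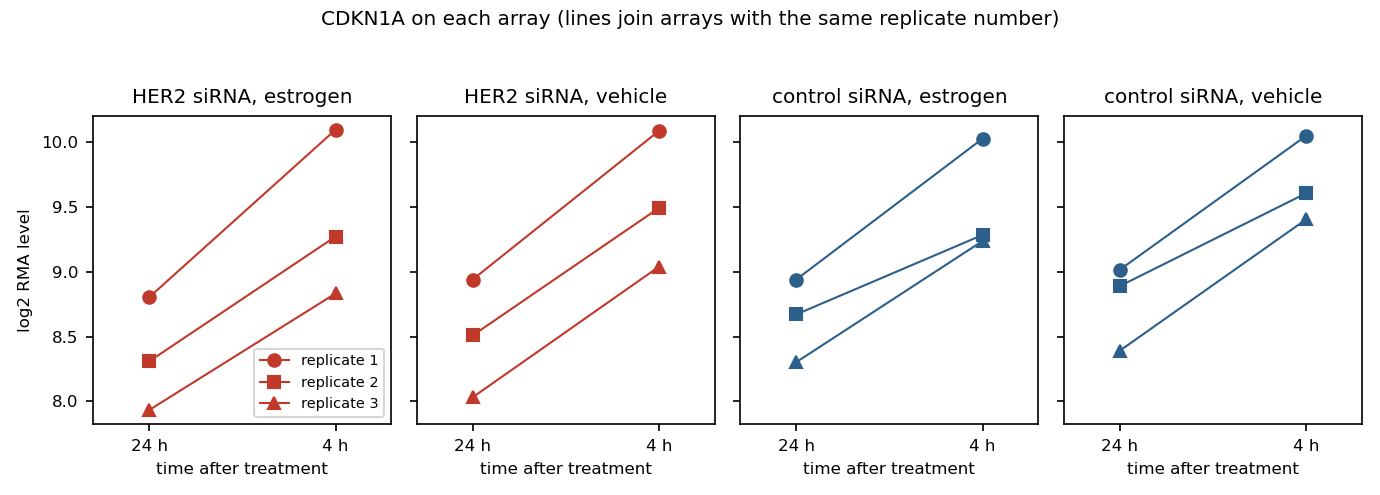
Log2 RMA level of CDKN1A (y axis) on each array at 24 h and at 4 h (x axis), with 1 panel per siRNA and hormone, and lines that join arrays of the same replicate number. All 12 lines are lower at 24 h, as they must be where groups do not overlap, and in each panel replicate 1 is highest and replicate 3 lowest.

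Ordered by group mean, CDKN1C was highest in HER2 siRNA vehicle 24 h (8.89 ± 0.18), followed by HER2 siRNA vehicle 4 h (8.33 ± 0.12), estrogen 4 h (8.29 ± 0.16) and estrogen 24 h (8.25 ± 0.17), and then by control siRNA vehicle 24 h (7.14 ± 0.12), vehicle 4 h (6.97 ± 0.26), estrogen 4 h (6.75 ± 0.05) and estrogen 24 h (5.93 ± 0.11; SD, n = 3 each). Neighbours in this order did not overlap in 3 of 7 places, below HER2 siRNA vehicle 24 h, between the siRNAs, and above control siRNA estrogen 24 h. CDKN2D had 1 such gap of 7, between control siRNA estrogen 4 h (7.11 ± 0.10) and control siRNA estrogen 24 h (6.78 ± 0.13). RB1, RBL2, CDKN1A, CDKN1B and CDKN2A had none. Neighbours in a sorted order are the groups closest in mean, so overlap between them does not speak to groups further apart. The share of such gaps over all genes tested was not computed. The genes whose 8 centred group means lay closest to CDKN1C were STOM, PIK3IP1 and GPAT3, with root mean square differences of 0.211, 0.218 and 0.220 on the log2 scale, where CDKN1C itself spans 2.97. For CDKN1A, which spans 1.34, they were UPP1 (0.0872), MMP1 (0.0886) and GEM (0.0998).

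Genes of the E2F pathway, on which the members act, were mostly lower in HER2 siRNA cells. Averaged over the conditions, HER2 siRNA lowered 8 of 10 E2F and DP transcription factor genes and raised 1 (median -0.56), against the background of 29.1% lower and 30.1% higher. E2F7 (-2.70 ± 0.12) and E2F8 (-1.83 ± 0.13), both repressors within the family, and the activators E2F2 (-1.36 ± 0.06) and E2F3 (-1.02 ± 0.05) were lower in HER2 siRNA cells. All 17 E2F-activated genes of S phase entry fell (median -1.42), among them RRM2 (-2.14 ± 0.06), which makes deoxynucleotides as part of ribonucleotide reductase, and the replicative helicase genes GINS2 (-1.80 ± 0.04), MCM5 (-1.43 ± 0.05) and MCM6 (-1.42 ± 0.04). Of 9 genes for G1 and S cyclins and their kinases 8 fell and 1 rose (median -0.75), with CCNE2 (-1.70 ± 0.05) and CCNA2 (-1.66 ± 0.09), which activate CDK2, CDK2 itself (-0.84 ± 0.04) and the phosphatase CDC25A (-1.38 ± 0.06) among those that fell. Of 9 MuvB and MYB partners of the pocket proteins 7 fell (median -0.48), such as MYBL1 (-1.84 ± 0.14), FOXM1 (-1.70 ± 0.07), MYBL2 (-1.07 ± 0.06) and the MuvB subunit LIN9 (-0.50 ± 0.05).

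Genes that act on the inhibitors were more mixed. Of 12 ubiquitin ligase genes that act on CIP/KIP proteins 6 fell and 2 rose (median -0.15), and among those that fell were DTL (-2.57 ± 0.06), which directs CDKN1A protein to destruction in S phase, CDC20 (-1.67 ± 0.09), CKS1B (-1.34 ± 0.06), the SKP2 cofactor for CDKN1B protein, and RBX1 (-0.57 ± 0.05). Of 16 transcription factors and chromatin regulators of the inhibitor genes 10 rose and 3 fell (median 0.26). FOXO1 (1.44 ± 0.09), FOXO3 (0.85 ± 0.05) and the repressor TBX2 (0.88 ± 0.08) were higher in HER2 siRNA cells, and EZH2 (-1.08 ± 0.04), the Polycomb methyltransferase, was lower. Of 15 FOXO-induced genes outside the members 12 rose and 1 fell (median 0.93), among them IRS2 (2.29 ± 0.07), PIK3IP1 (1.85 ± 0.05), KLHL24 (1.84 ± 0.08) and CITED2 (1.82 ± 0.07). The 18 p53-induced genes were split, with 7 higher and 7 lower (median 0.06), XPC (0.78 ± 0.04) and CCNG1 (0.38 ± 0.03) among those that were higher and MDM2 (-0.81 ± 0.08) and SESN1 (-0.48 ± 0.03) among those that were lower. Of the markers of other cell types LYZ (1.08 ± 0.17), COL1A1 (0.35 ± 0.07) and VWF (-0.32 ± 0.07) differed by siRNA. LYZ lay near the filter level, with a mean of 5.38 in HER2 siRNA cells and 4.31, below it, in control siRNA cells. The luminal markers GATA3 (0.53 ± 0.04), KRT19 (-0.26 ± 0.04), KRT18 (-0.15 ± 0.03) and KRT8 (-0.15 ± 0.05) differed as well. The part of these markers in the counts was not tested.

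**Figure D5:**
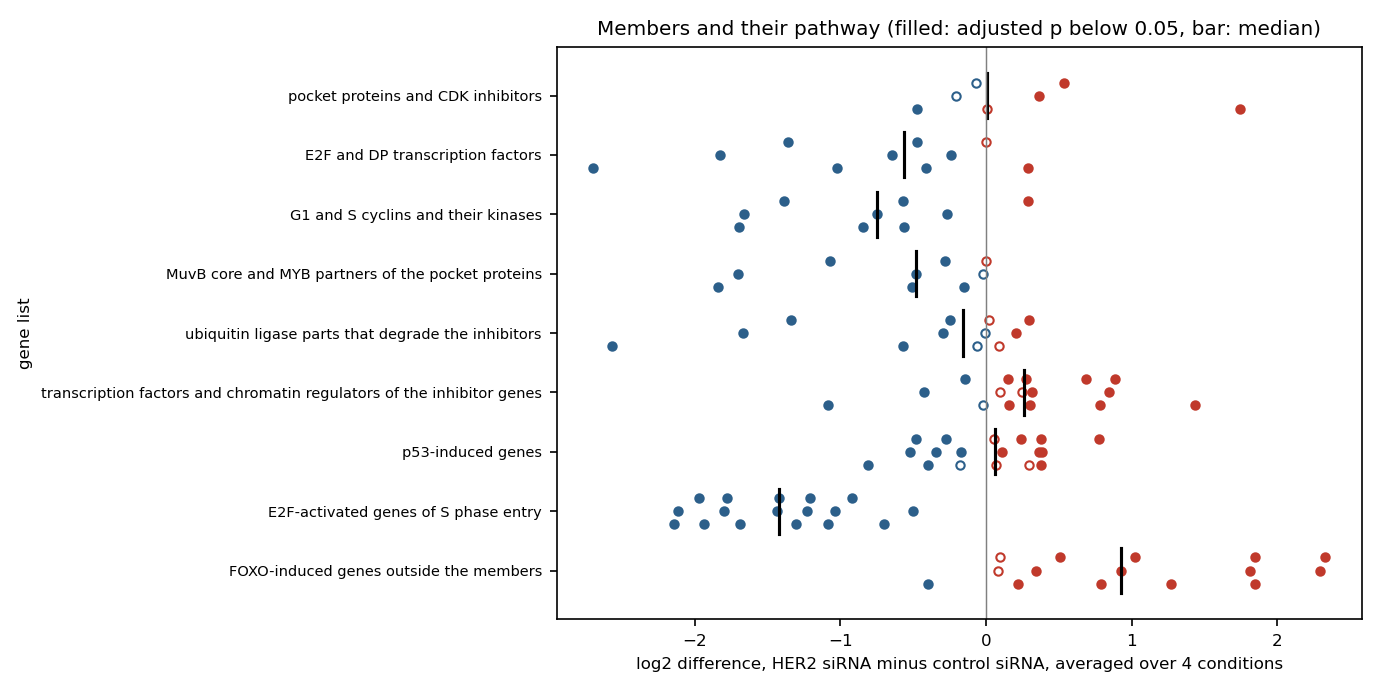
Averaged log2 difference of HER2 siRNA minus control siRNA (x axis) for each tested gene of the members and of 8 lists (y axis), red above 0 and blue below, filled for an adjusted p below 0.05, with a bar at each list's median. The E2F-activated genes all lie below 0 (median -1.42), most FOXO-induced genes lie above it (median 0.93), and the members lie on either side.

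Estrogen at 24 h in control siRNA cells raised all 17 E2F-activated genes (median 0.63, background 7.01% higher and 6.52% lower), with MCM6 at 0.81 ± 0.08, MCM2 at 0.80 ± 0.11 and MCM4 at 0.58 ± 0.07. It raised 4 of 10 E2F and DP genes, among them E2F8 (0.95 ± 0.25), E2F2 (0.52 ± 0.13) and E2F4 (0.30 ± 0.08), and 5 of 9 cyclin and kinase genes, among them CDC25A (0.59 ± 0.13), CDK2 (0.45 ± 0.08) and CDK4 (0.40 ± 0.08). Of the MuvB and MYB partners 3 of 9 rose, with MYBL1 at 2.48 ± 0.29 and MYBL2 at 0.59 ± 0.12, and LIN37 fell (-0.41 ± 0.09). Of the ubiquitin ligase genes 3 of 12 rose, namely DTL (0.77 ± 0.12), CKS1B (0.48 ± 0.11) and SKP2 (0.42 ± 0.08). Among the regulators of the inhibitor genes MYC (2.93 ± 0.24), a known repressor of CDKN1A and CDKN2B, and EZH2 (0.57 ± 0.08) rose and TBX2 (-0.81 ± 0.17) fell, 3 of 16 in all. FOXO-induced genes fell in 5 of 15 cases and rose in 1, with TRIB1 (-0.69 ± 0.10), CCNG2 (-0.65 ± 0.09) and PIK3IP1 (-0.60 ± 0.10) among the falls. Of 18 p53-induced genes 3 fell and 1 rose, with TP53INP1 at -1.15 ± 0.12, SESN1 at -0.37 ± 0.07 and AEN at 0.49 ± 0.11. The luminal markers GATA3 (-0.95 ± 0.09) and FOXA1 (-0.40 ± 0.09) were lower and COL1A2 (0.27 ± 0.08) was higher in the same comparison, and their part in it was not tested. COL1A2 lay near the filter level, at 5.12 with estrogen and 4.85 with vehicle. In HER2 siRNA cells 13 of the 17 E2F-activated genes rose with estrogen at 24 h (median 0.51, background 4.28% higher). At 24 h against 4 h, p53-induced genes were called lower in 6 of 18 cases in HER2 siRNA estrogen (background 3.15%) and 7 in HER2 siRNA vehicle (3.43%). With control siRNA they were called lower in 5 cases with estrogen (3.43%) and 3 with vehicle (0.419%), and 1 was called higher with vehicle (0.363%). A link of these genes to CDKN1A was not tested, and the other lists are not described for time.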

How the data were processed

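Total RNA of BT-474 cells was biotin-labelled by 3′ in vitro transcription and hybridised to 24 Affymetrix HG-U133 Plus 2.0 arrays. The deposited values are log2 levels per probe set, made by the authors with RMA per the submitters' processing notes (version not given in the sources used here). The number of arrays, 3 per group, sets the precision. Of 54675 probe sets, 41091 had 1 symbol in the annotation, 1801 several, 11721 none and 62 were controls. A gene was represented by its brightest probe set, by the mean over all arrays. Using R 4.3.3 and limma 3.58.1, 1 mean per group was fitted over 24 arrays and variances were moderated (4.92 prior and 20.9 total degrees of freedom). The Benjamini-Hochberg adjustment ran over 14335 genes within each of 16 comparisons, and the method was tested on simulated data. Tables and figures used Python 3.11.15. Promoter windows and gene positions came from RefSeq on GRCh38.p14.

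The members, gene lists and tests were chosen with earlier results of these data known. Named genes are the members, ERBB2, from each list up to 4 genes with the smallest adjusted p for the averaged siRNA comparison and up to 3 for estrogen in control siRNA at 24 h, and the 3 genes closest to each member whose group means span at least 1. BMI1, BBC3, FDXR and BTG2 of the lists had no probe set of their own in the annotation used, and CCND2 was below the filter. Alternatives were no filter, a filter of 7, the replicate number as a block, leaving out arrays, other uses of probe sets, only the groups compared, 2 normalisations, a robust prior with a trend on intensity, and a covariate for the GAPDH 3′ minus 5′ level. Replicate numbers were taken to pair arrays where the deviations of all 3 same-number pairs correlated above 0.1, which held in 5 of 12 comparisons of 2 groups (60 of 84 pairs over all groups, median 0.205).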

Additional observations from a re-analysis of the deposited data

Results flagged for a closer look

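The HER2 siRNA effect on CDKN1C was larger at 24 h (2.04) than at 4 h (1.45), and the test of that difference gave 0.59 ± 0.12 (adjusted p = 0.0119, limma). Of its 4 probe sets above the filter, 2 passed this test, and their values were 0.59, 0.13, 0.60 and 0.33. The other 6 members tested did not pass it.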

How the results depend on the processing

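Of 3890 values of single members recomputed under the alternatives, 3833 kept their side of the threshold, 22 lost a call, 35 gained one and none reversed a call. Values that passed in no fit could change sign, as CDKN1A did for the siRNA with estrogen at 4 h (-0.46 to 0.17). The averaged siRNA calls of CDKN1C, RBL2, CDKN1B and CDKN2D, and the 24 h estrogen calls of CDKN1C, were kept under every alternative run. Fitting only the groups compared was not run for the averaged siRNA comparison and the difference between its times, which use all groups.

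Counts of called members moved by over 1.5 times as follows. For HER2 siRNA with estrogen at 4 h (2), it was 4 with the mean of probe sets, 4 with quantile normalisation and 1 with the GAPDH covariate, and 2 to 4 leaving out 1 array. All genes called there were 4886 of 14335 in the main fit. In the same order of settings they were 4484 of 13045, 5028 of 14325 and 3774 of 14335. For estrogen in control siRNA at 24 h (1) it was 2 with quantile normalisation (CDKN2A added), where all genes called went from 1939 of 14335 to 2019 of 14325. For the siRNA effect at 24 h minus 4 h (1) it was 0 with the mean of probe sets, where they went from 423 of 14335 to 396 of 13045. For 24 h against 4 h in HER2 siRNA estrogen (1) it was 0 with no filter, 2 with a filter of 7, 2 with the replicate block, 0 without the 3 arrays numbered apart, 0 with the mean of probe sets, 0 with every probe set, 0 with only the groups compared, 0 with quantile normalisation and 0 to 2 leaving out 1 array. All genes called there were 890 of 14335 in the main fit, 742 of 19775 unfiltered and 1052 of 9287 with a filter of 7. They were 1514 of 14335 with the block and 511 of 14260 without the arrays numbered apart. They were 782 of 13045 with the mean of probe sets, 379 of 14335 with only the groups compared and 945 of 14325 with quantile normalisation. Such shares are not given for every probe set or for leaving out 1 array. For 24 h against 4 h in HER2 siRNA vehicle (1) it was 2 with a filter of 7, 2 with the replicate block, 2 without the arrays numbered apart, 0 with only the groups compared and 0 to 2 leaving out 1 array. All genes called there were 926 of 14335 in the main fit. In the same order of settings they were 1154 of 9287, 1670 of 14335, 1004 of 14260 and 52 of 14335. In control siRNA estrogen (1) it was 3 with the replicate block and 0 with the mean of probe sets. All genes called there were 855 of 14335 in the main fit, then 1437 of 14335 and 719 of 13045. In control siRNA vehicle (0) it was 1 with a filter of 7 and 2 with the replicate block. All genes called there were 112 of 14335 in the main fit, then 187 of 9287 and 448 of 14335. The causes were not tested.

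Pairing was checked between 2 groups at a time, not for the averaged siRNA comparison, where the replicate block gave CDKN1A an adjusted p of 0.00344 (-0.21). Where the numbers did not meet the rule for pairing, the block in limma gave CDKN1A 0.0429 for the siRNA with estrogen at 24 h. It gave CDKN1A 4.11e-06, 4.82e-05 and 0.00025 for 24 h against 4 h in HER2 siRNA estrogen, control siRNA estrogen and control siRNA vehicle. For CDKN2D the block gave 0.0316 and 0.00935 for 24 h against 4 h in control siRNA estrogen and vehicle. Missing the rule does not show that arrays were unpaired, and CDKN1A had replicate 1 highest and replicate 3 lowest in 8 of 8 groups. Elsewhere the block changed no call but that of CDKN1A in HER2 siRNA vehicle, given above. Levels near the floor of the array limit what can be said of RBL1 and CDKN2B.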
